A study of Mus musculus with 24 samples.

Results

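The 37 genes described here are the microglia genes of the adult mouse hippocampus: 12 homeostatic genes, 4 general myeloid genes, 13 phagocytic and sensing genes and 8 disease-associated genes. They were taken from a fixed list of names, with no rule on their values, but the list was chosen with earlier results of these data known. All 37 were found among the 55385 gene identifiers of the count files. RNA of the hippocampus was sequenced from 24 mice, 4 in each of 6 groups. Both sexes were used, and the labels do not give the sex of each mouse. All mice carried floxed Tsc1 alleles and had received tamoxifen. Tsc1-Cre+ mice also carried the Camk2a-CreERT2 transgene, whose promoter drives Cre in CAMK2A-positive excitatory neurons, so that the deletion of Tsc1, a repressor of the kinase mTORC1, was made in these neurons and not in microglia. They were taken on day 4, 6, 8 or 13, counted from the first tamoxifen injection, without rapamycin. Tsc1-Cre+-Rap 4 mice, called the rapamycin mice below, received 10 mg/kg rapamycin, an mTORC1 inhibitor, daily from day 4 and were taken on day 13. Tsc1-Cre- littermates without the transgene, taken on day 8, were the controls. The deposited names begin with numbers, whose meaning the labels do not give. Controls and day 8 mice share 2 of these numbers, and no number is shared between any other groups, so that whatever the numbers mark cannot be told apart from the group in any comparison but day 8 against control, where 1 member was called higher and 0 lower with the number as a block as well as without it. The 24 libraries hold no Tsc1-Cre- mice with rapamycin and no controls of days 4, 6 or 13, so an action of the drug on wild-type tissue and an effect of the day cannot be told apart from the group differences below.

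Microglia are the resident macrophages of the brain. At rest they survey the tissue with branched processes, depend on signals through the receptor CSF1R and express a signature of surface receptors such as P2RY12, CX3CR1 and TMEM119, which is held in place by TGF-beta and by the transcription factor SALL1. When neurons are injured, or fire in seizures, microglia can take up debris and synapses, for which they use complement C1q, Fc receptors, the receptor TREM2 with its adaptor TYROBP, and lysosomal proteins such as CD68. In degenerating tissue they can enter a disease-associated state, in which the homeostatic receptors fall and Apoe, Lpl, Cst7, Itgax, Clec7a, Axl and Spp1 rise.

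The bases before the RefSeq start (build GRCm38.p6, 250 bases, written 5′ to 3′ on the strand of the gene) are given for 2 homeostatic and 2 disease-associated genes. The genes were taken in the order of their absolute day 13 log2 fold change, where the window reached no annotated UTR. These are Olfml3 (ENSMUSG00000027848.12) at chr3:103738002-103738251 (- strand), P2ry13 (ENSMUSG00000036362.2) at chr3:59210883-59211132 (- strand), Spp1 (ENSMUSG00000029304.14) at chr5:104434861-104435110 (+ strand) and Apoe (ENSMUSG00000002985.16) at chr7:19699189-19699438 (- strand). Capitals mark matches, on either strand, to GAGGAAG, a core of sites of the myeloid factor PU.1, and to CAGACA, a SMAD motif. The E-box CACGTG and the AP-1 motif TGANTCA were searched as well.
Olfml3: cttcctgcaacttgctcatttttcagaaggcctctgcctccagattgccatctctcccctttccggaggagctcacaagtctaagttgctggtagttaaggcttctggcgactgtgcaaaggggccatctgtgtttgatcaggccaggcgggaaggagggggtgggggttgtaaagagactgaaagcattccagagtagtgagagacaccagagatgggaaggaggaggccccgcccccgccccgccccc
P2ry13: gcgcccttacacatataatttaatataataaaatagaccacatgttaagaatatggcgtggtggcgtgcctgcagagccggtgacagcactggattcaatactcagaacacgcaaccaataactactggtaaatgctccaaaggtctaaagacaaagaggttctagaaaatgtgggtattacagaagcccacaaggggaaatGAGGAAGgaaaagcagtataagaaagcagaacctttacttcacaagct
Spp1: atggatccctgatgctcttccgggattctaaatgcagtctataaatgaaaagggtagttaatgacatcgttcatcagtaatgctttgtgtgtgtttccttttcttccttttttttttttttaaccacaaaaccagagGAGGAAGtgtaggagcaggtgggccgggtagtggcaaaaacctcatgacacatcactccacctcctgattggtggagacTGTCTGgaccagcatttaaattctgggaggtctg
Apoe: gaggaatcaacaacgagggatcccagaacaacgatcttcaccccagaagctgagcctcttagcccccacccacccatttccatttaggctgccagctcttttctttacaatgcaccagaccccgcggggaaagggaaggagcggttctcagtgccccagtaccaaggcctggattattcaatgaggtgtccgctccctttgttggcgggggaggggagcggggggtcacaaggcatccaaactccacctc

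P2ry13 and Spp1 each held GAGGAAG once, Spp1 also held the SMAD motif on the reverse strand, and the windows of Olfml3 and Apoe held none of the 4 motifs. RefSeq promoters were found for 29 of the 37 members. GAGGAAG was present in 10 of them (34.5%), against 10.4% of 27025 promoters of the same length. By role, it was present in 3 of 8 homeostatic, 2 of 4 general myeloid, 3 of 10 phagocytic and sensing and 2 of 7 disease-associated promoters. CAGACA was in 7 of the 29 (24.1%, against 17.1% of all promoters), TGANTCA in 4 (13.8% against 6.87%) and CACGTG in 2 (6.9% against 6.05%). The 2 promoters with CACGTG belong to P2ry12 and Siglech. The 4 with TGANTCA belong to Trem2, C3ar1, Cd68 and Itgax. A match is a description of the sequence and does not show that a factor binds there.

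Library depth ranged from 28208561 to 126435936 counts, and Itgax, the lowest member, rested on few counts per mouse. Values in CPM, counts scaled to a common library size, were scaled by TMM factors over all 24 mice. Tsc1 itself, the targeted gene, read 110, 103, 106 and 104 CPM in the control mice and between 56.7 and 82 CPM in the 20 Cre-positive mice, with no overlap. The level that remains includes the cells without Cre and any transcript that still carries counted exons. Among the members, compared per kilobase of exon in the controls, Apoe was the highest (323 CPM per kb), a gene made mostly by astrocytes in the brain, followed by Ctss (37.8), C1qa (26.7), Csf1r (14.8) and P2ry12 (13.1). At the lower end were Tlr2 (0.404), Clec7a (0.311), C3 (0.294) and Itgax (0.101 CPM per kb). Cx3cr1, P2ry12 and Tmem119, defining genes of microglia, were measured in every mouse. Lpl, a lipase that hippocampal neurons also make, and Axl, Cd9 and C3, which other brain cells also express, are not specific to microglia. Because whole hippocampus was sequenced, fewer microglia and less RNA per microglial cell cannot be told apart in any comparison. Exons of 6 members overlap another annotated gene, P2ry12 with Med12l, Cx3cr1 with Gm33858, Csf1r with Hmgxb3 and Cd9 with Gm26728 on the opposite strand, and Spp1 with Gm42793 and Itgam with Gm49368 on the same strand, and reads shared with these genes cannot be told apart here.

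Every Cre-positive group was tested against the controls, and day 13 also against rapamycin and day 8. A gene was called when the Benjamini-Hochberg (BH) adjusted p of edgeR's quasi-likelihood test, over all genes, was under 0.05 and its absolute log2 fold change over 0.5. On day 4, 0 of 37 members were called (0.68% of all tested genes were), although 16 had an unadjusted p under 0.05 by edgeR and 18 by DESeq2, which called 0 too. The members lay low as a group: 34 of 37 had a log2 fold change below 0, with a median of -0.21, against 51.2% of all genes below 0. In 5 of the 37, all 4 day 4 mice were below all 4 controls, against 5.69% of all genes. On day 6, 1 member, Clec7a, was called lower (1.32% of all genes were called). The median of the members was -0.28, 34 of 37 were below 0 (53.8% of all genes), and in 16 of 37 all 4 mice were below all controls, against 6.62% of all genes. Markers of other glia and of vessels lay low too. On day 6, 12 of 12 astrocyte, 10 of 10 oligodendrocyte and 7 of 9 endothelial and mural markers were below 0. Their medians were -0.23, -0.38 and -0.13 on day 6, and -0.10, -0.24 and -0.12 on day 4. The neuron and hippocampus markers had medians of 0.06 on day 4 and 0.00 on day 6. All comparisons of days 4 and 6 share the same 4 control mice. Without control mouse C or day 4 mouse D, 1 and 2 members were called lower on day 4. The single call of day 6 was lost without control B, control D or any 1 of the day 6 mice, and without control C there were 3. A call of 1 higher member appeared on day 6 without control A or day 6 mouse B or D.

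On day 8, 1 member, Lpl, was called higher and 0 lower (3.99% of all genes were called). The median of the members was -0.12. Lpl was not called without control B, C or D or without day 8 mouse A, B or D, and 1 member was called lower without control A or C or day 8 mouse B. On day 13, 10 members were called higher (8.4% of all genes) and 2 lower (8.06%), and the median was 0.40, against -0.04 for all genes. The 10 were Fcgr3, C1qa, C1qb, C1qc, C3ar1, Cd68, Cd14 and Tlr2 of the 13 phagocytic and sensing genes, and Cd9 and Spp1 of the 8 disease-associated genes. The 2 called lower were P2ry13 and Apoe. DESeq2 called 15 of the 37. The difference between day 13 and day 8 was not called for any of the 37 members by edgeR (12 had an unadjusted p under 0.05) and for 1 by DESeq2. Neither was it for any other gene by edgeR (0%, with 3479 genes at an unadjusted p under 0.05), whereas DESeq2 called 238 genes. The median of the members was 0.43 in this comparison, with 30 of 37 above 0. This count moved with the mice in the fit: 12 members were called higher with 1 spread estimated over all 24 mice, and 14 higher and 2 lower without day 13 mice C and D, while without A and B it stayed at 0.

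The calls of day 13 rested on mice that differed widely. Mice A and B of day 13 had the highest levels of most phagocytic and sensing genes, and mice C and D lay nearer to the controls. A and B carry the same number in their deposited names, which C and D do not. They were also the deepest libraries of the group, with 69971957 and 126435936 counts against 38423852 for C and 41101425 for D. With all libraries thinned to the smallest one, 9 members were called higher and 1 lower. Without A and B, 3 members were called higher (C1qb, C1qc and Lpl) and 0 lower. Without C and D, 16 were called higher and 5 lower. The count of 10 fell to 2 without control A or D, to 3 without control B or C or day 13 mouse A, and to 4 without day 13 mouse B, and the 2 lower calls became 0 or 1 without any of these 6 mice. C1qb and C1qc were called in all 8 fits that left out 1 mouse, P2ry13 in 5, Fcgr3, Tlr2 and Spp1 in 3, and C1qa, C3ar1, Cd68, Cd14, Cd9 and Apoe in 2. With the level of Xist, which differs between females and males, as a covariate, 2 members were called higher. How the sexes were spread over the groups and over mice A to D is not shown here.

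**Figure D1:**
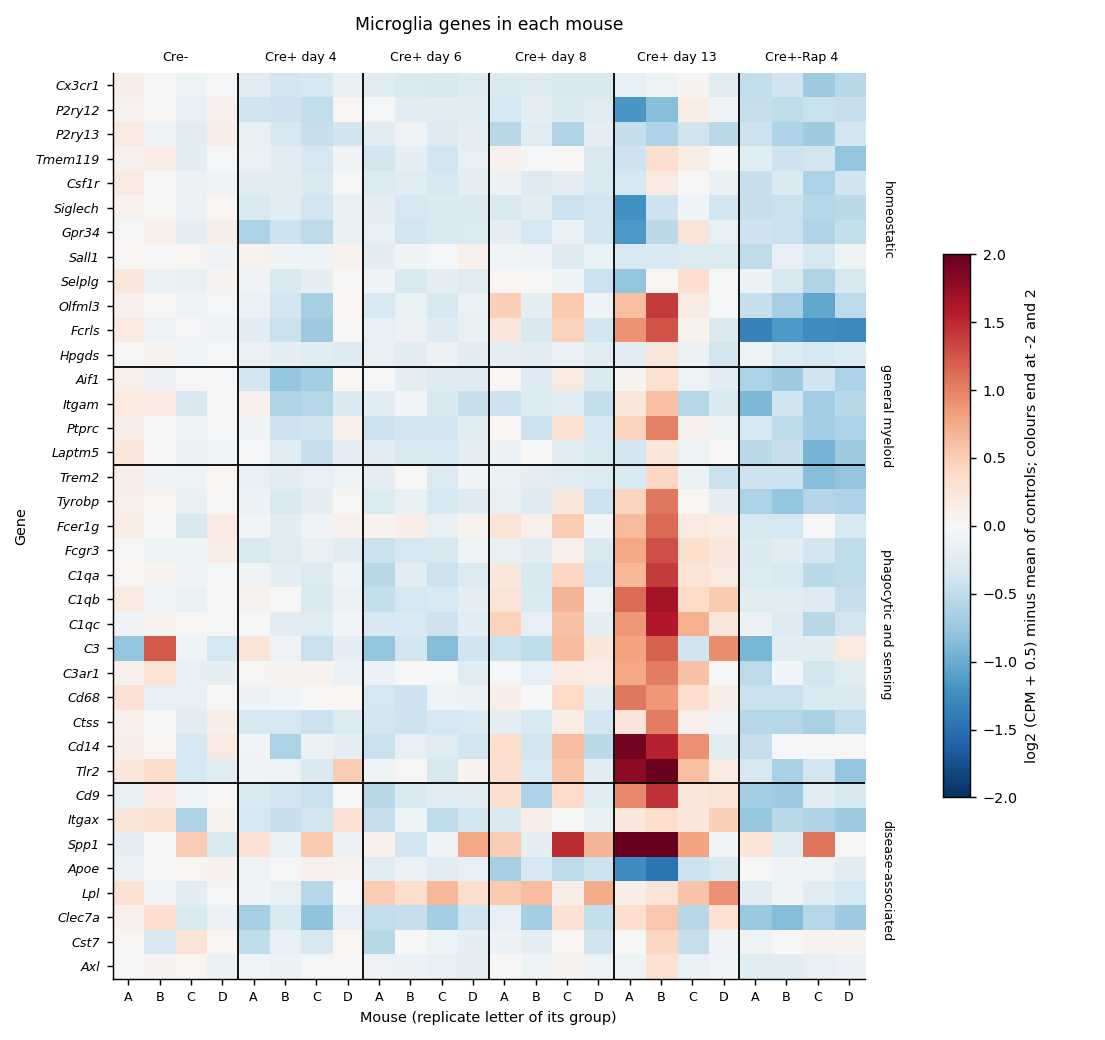
Heat map of the 37 microglia genes (rows, grouped by role) in the 24 mice (columns, by group and replicate letter); colour gives log2 (CPM + 0.5) minus the mean of the 4 controls. Day 13 mice A and B are the reddest columns in the phagocytic and sensing rows and the bluest for P2ry12, while the rapamycin columns are blue in nearly all homeostatic and general myeloid rows.

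In the rapamycin mice, 13 members were called lower and 0 higher than in the controls (1.04% of all genes were called lower). The median of the 36 members tested was -0.46, against 0.01 for all genes, 34 of 36 were below 0, and in 25 of 36 all 4 rapamycin mice were below all controls, against 6.74% of all genes. Of the 13, 5 were homeostatic (Cx3cr1, P2ry13, Siglech, Olfml3 and Fcrls), 4 were the general myeloid genes, 3 were phagocytic and sensing (Trem2, Tyrobp and Ctss) and 1 was disease-associated (Clec7a). Compared with the day 13 mice, 23 of 37 members were called lower in the rapamycin mice and 0 higher (11.2% of all genes were called lower), with a median of -0.96. These were 12 of the 13 phagocytic and sensing genes, all but Trem2, the 4 general myeloid genes, 5 of the 8 disease-associated genes and 2 of the 12 homeostatic genes, Olfml3 and Fcrls. Both comparisons use the same rapamycin mice. When 1 spread was estimated over all 24 mice, 6 members were called lower against control and 25 against day 13. Without day 13 mice A and B, 20 members were called lower against day 13. Leaving out 1 mouse kept the calls against control in all 8 fits for Olfml3, Fcrls, Aif1, Ptprc, Laptm5, Trem2, Tyrobp and Ctss. Siglech lost its call without rapamycin mouse C, Cx3cr1 and P2ry13 without this mouse or control A, Clec7a without control B or rapamycin mouse B, and Itgam without control A, B or D or rapamycin mouse A or C. Against day 13, 1 member was called higher without day 13 mouse C or D, and Cd14, C3, Itgam and Spp1 lost their calls in 1, 6, 6 and 5 of 8 such fits.

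Of the 12 homeostatic genes, 0 were called on days 4, 6 and 8 (0.68%, 1.32% and 3.99% of all genes were). On day 13, 1 was called lower, which is near the 8.06% of all genes called lower. In the rapamycin mice 5 were called lower against control (1.04% of all genes were). Their median log2 fold change was -0.27, -0.23, -0.20 and -0.10 on days 4, 6, 8 and 13 and -0.48 with rapamycin. Olfml3, a secreted olfactomedin-like protein of microglia, had the largest day 13 value of the list. Olfml3 read 14.2, 13.6, 12.8 and 13 CPM in control mice A to D, 20.5, 36.2, 15.1 and 13.1 CPM in the day 13 mice and 9.57, 8.26, 6.25 and 9.16 CPM in the rapamycin mice. For Olfml3, day 4 gave 12.2, 10.2, 8.26 and 13.8 CPM, 10.7, 12.1, 10.6 and 12.2 CPM on day 6 and 18.8, 11.8, 19.4 and 12.5 CPM on day 8. Day 13 mice A, B and C and day 8 mice A and C stood above all controls, and all 4 rapamycin mice below them. The day 13 difference was not called (log2 fold change 0.67, SE 0.264, edgeR, BH-adjusted p = 0.0853). Olfml3 fell by 0.68 on the log2 scale (SE 0.114, edgeR, BH-adjusted p = 0.00614) from control to rapamycin and by 1.36 from day 13 (SE 0.284, BH-adjusted p = 0.00664).

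Fcrls, an Fc receptor-like scavenger receptor of microglia, followed the same order of mice. Fcrls read 25.9, 21.1, 22.2 and 21.6 CPM in control mice A to D, 42.5, 54.9, 23.8 and 18.4 CPM in the day 13 mice and 8.67, 9.92, 9.32 and 9.08 CPM in the rapamycin mice. Before day 13, Fcrls was at 19.2, 16.5, 13.5 and 22.7 CPM on day 4, 20.2, 20.9, 18.9 and 20.3 CPM on day 6 and 26.2, 18, 31.3 and 17.5 CPM on day 8. In this gene too, mice A and B of day 13 exceeded all controls, mice C and D lay among or below them, and the rapamycin mice, all under 10 CPM, did not overlap with any other mouse of the study. Fcrls fell by 1.28 on the log2 scale (SE 0.08, edgeR, BH-adjusted p = 5.06e-06) in the rapamycin mice relative to control, the lowest adjusted p of the members in this comparison, whereas its day 13 value was not called (log2 fold change 0.63, SE 0.284, edgeR, BH-adjusted p = 0.129). Without day 13 mice A and B, Fcrls was at -0.08 on day 13, and without C and D at 1.12.

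P2ry13, an ADP receptor, was the homeostatic gene called on day 13. P2ry13 read 17.8, 14.6, 13.3 and 17.1 CPM in control mice A to D, 11.1, 10, 11.7 and 10.6 CPM in the day 13 mice and 11.4, 9.97, 9.34 and 12 CPM in the rapamycin mice. For P2ry13, day 4 gave 14, 12.4, 11.2 and 11.7 CPM, 13.4, 14.5, 12.9 and 13.6 CPM on day 6 and 10.4, 13.1, 10.1 and 13.5 CPM on day 8. All 4 day 13 mice and all 4 rapamycin mice were below the lowest control, and on days 4, 6 and 8 the groups overlapped with the controls. P2ry13 fell by 0.53 on the log2 scale (SE 0.118, edgeR, BH-adjusted p = 0.0113) on day 13 and by 0.55 with rapamycin (SE 0.107, BH-adjusted p = 0.0146). Day 13 and rapamycin mice differed by -0.03 (SE 0.119, BH-adjusted p = 0.853).

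Siglech, a sialic acid-binding lectin of microglia, was lower in all mice of days 4, 6 and 8 than in any control. Siglech read 17, 16.4, 14.9 and 16.6 CPM in control mice A to D, 6.74, 12, 15.3 and 12.4 CPM in the day 13 mice and 11.6, 11.8, 10.8 and 11 CPM in the rapamycin mice. Earlier levels of Siglech were 13, 14, 12.3 and 14.6 CPM on day 4, 14.3, 12.7, 13.1 and 13.2 CPM on day 6 and 13, 13.8, 11.9 and 12.4 CPM on day 8. On day 13, mouse A stood far below the others and mouse C overlapped with the controls. The day 13 value of Siglech was not called (log2 fold change -0.48, SE 0.209, edgeR, BH-adjusted p = 0.117), and with rapamycin it fell by 0.51 on the log2 scale (SE 0.07, edgeR, BH-adjusted p = 0.00196). Cx3cr1, the receptor for the neuronal chemokine fractalkine, had a similar course. Cx3cr1 read 53.7, 48.1, 45.2 and 48.1 CPM in control mice A to D, 43.2, 45.1, 50.4 and 41.1 CPM in the day 13 mice and 34.3, 36.8, 29.5 and 32.9 CPM in the rapamycin mice. For Cx3cr1, day 4 gave 42.2, 37.1, 37.9 and 43.8 CPM, 41.3, 39.5, 39 and 40.1 CPM on day 6 and 39.9, 40.5, 39 and 38.9 CPM on day 8. All mice of days 4, 6 and 8 were below the lowest control, day 13 overlapped with the controls, and the rapamycin mice were the lowest. Its log2 fold change was -0.28, -0.29 and -0.29 on days 4, 6 and 8 (edgeR, BH-adjusted p = 0.0343, 0.00316 and 0.00907), below the fold minimum for a call. Cx3cr1 fell by 0.54 on the log2 scale (SE 0.0694, edgeR, BH-adjusted p = 0.00145) with rapamycin.

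Tmem119, a membrane protein that marks resident microglia, had the smallest day 13 change of the list. Tmem119 read 16, 16.8, 12.9 and 14.7 CPM in control mice A to D, 11.1, 19, 16.5 and 14.9 CPM in the day 13 mice and 12.6, 11.2, 11.6 and 8.53 CPM in the rapamycin mice. Earlier levels of Tmem119 were 13.6, 12.9, 11.8 and 14.3 CPM on day 4, 11.5, 13, 11.4 and 13.3 CPM on day 6 and 16, 14.8, 15.2 and 12.1 CPM on day 8. Day 13 mouse B was above the controls and mouse A below, C and D lay within their range, and the rapamycin mice were all below them. Its difference was not called on day 13 (log2 fold change 0.03, SE 0.157, edgeR, BH-adjusted p = 0.89), and -0.45 with rapamycin (BH-adjusted p = 0.053). The other homeostatic genes were not called against control in any group. P2ry12, the ADP receptor that guides microglial processes, is shown for its spread, chosen after its values were seen. P2ry12 read 35, 33.8, 29.7 and 35.4 CPM in the controls, 14.7, 18.3, 37.1 and 31.7 CPM on day 13 and 24.1, 23.4, 24.3 and 24 CPM with rapamycin. Mice A and B of day 13 were far below all controls and mouse C above them, so that the group spanned both sides of the controls. Gpr34, a receptor for lysophosphatidylserine, was low in the same day 13 mice A and B, at 6.57, 10.3, 18.4 and 13.5 CPM against 15, 16.4, 13.2 and 16.6 CPM in the controls. With all 4 day 13 mice, P2ry12, Gpr34 and Siglech were not called (edgeR, BH-adjusted p = 0.299, 0.393 and 0.117). Without day 13 mice C and D the 3 were called lower, the last 2 at -0.83 and -0.77. Without A and B they were at 0.07, 0.09 and -0.20. These 2 fits restate the split between the mice and are no separate support for it. Csf1r, the receptor for the growth factors CSF1 and IL-34, was at -0.06 on day 13 and -0.43 with rapamycin (BH-adjusted p = 0.00731). Sall1, the transcription factor of microglial identity, was at -0.29 on day 13 (BH-adjusted p = 0.0241), with all 4 mice below the controls. Selplg, the selectin ligand PSGL-1, was at -0.05 on day 13 and -0.35 with rapamycin, and Hpgds, a prostaglandin D synthase, at -0.10 and -0.25.

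**Figure D2:**
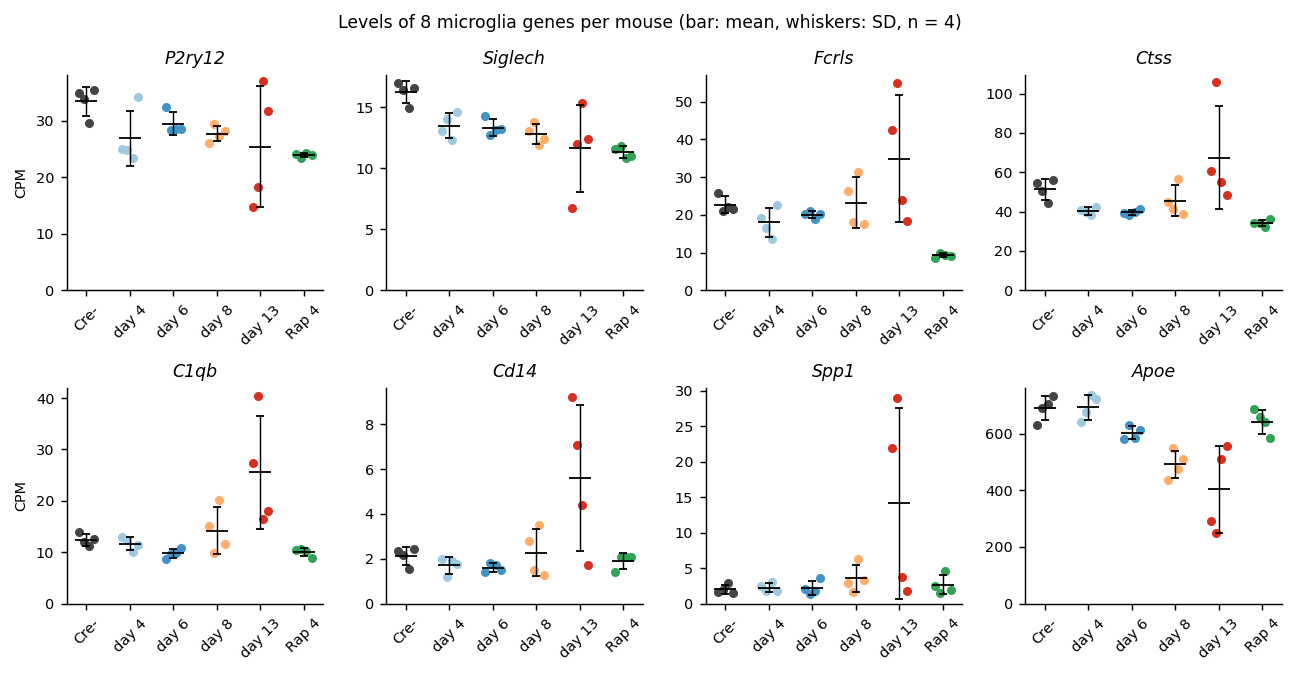
Level in CPM (vertical axis, from 0, a separate scale per gene) of 8 microglia genes in each of the 24 mice by group; each point is 1 mouse, the bar is the mean and the whiskers the SD of 4 mice. P2ry12 and Siglech spread downward on day 13 and Fcrls, Ctss, C1qb, Cd14 and Spp1 upward, and Apoe declines from day 6 to day 13. The rapamycin mice lie close together for all of these genes but Spp1. Their points are below the controls for all but Cd14, Spp1 and Apoe, where the groups overlap. P2ry12 and Ctss were added after their values were seen.

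The 4 general myeloid genes were not called on any day without rapamycin. All were called lower in the rapamycin mice, both against control (1.04% of all genes were) and against day 13 (11.2%). Ptprc encodes CD45, the phosphatase of all leukocytes. Ptprc read 8.42, 7.75, 7.24 and 7.62 CPM in control mice A to D, 10.7, 16.1, 8.25 and 7.16 CPM in the day 13 mice and 5.97, 5.25, 4.64 and 4.83 CPM in the rapamycin mice. Before day 13, Ptprc was at 7.29, 5.71, 5.77 and 8.35 CPM on day 4, 5.62, 5.89, 5.92 and 6.61 CPM on day 6 and 7.98, 5.65, 9.64 and 6.01 CPM on day 8. Among the day 13 mice, A and B were above all controls, B by the most, and the rapamycin mice were below all controls. Ptprc was not called on day 13 (log2 fold change 0.45, SE 0.215, edgeR, BH-adjusted p = 0.146), and fell by 0.58 on the log2 scale (SE 0.104, edgeR, BH-adjusted p = 0.0089) with rapamycin. Itgam encodes the integrin CD11b. Itgam read 4.74, 4.65, 3.18 and 4.01 CPM in control mice A to D, 4.87, 6.47, 2.59 and 3.21 CPM in the day 13 mice and 1.98, 2.99, 2.38 and 2.64 CPM in the rapamycin mice. Before day 13, Itgam was at 4.42, 2.54, 2.59 and 3.22 CPM on day 4, 3.46, 3.93, 3.17 and 2.83 CPM on day 6 and 2.95, 3.29, 3.41 and 2.8 CPM on day 8. Day 13 mouse C lay within the range of the rapamycin mice, and A and B were above all controls. Itgam was not called on day 13 (log2 fold change 0.07, SE 0.263, edgeR, BH-adjusted p = 0.872), and fell by 0.70 on the log2 scale (SE 0.161, edgeR, BH-adjusted p = 0.0309) with rapamycin, while against day 13 it was called at -0.79 (BH-adjusted p = 0.0463).

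Laptm5, a lysosomal membrane protein of blood cells and microglia, and Aif1, which encodes IBA1, the usual histological marker of microglia, changed least on day 13. Laptm5 read 18.7, 15.7, 14.8 and 15.6 CPM in control mice A to D, 12.4, 19, 15 and 16.1 CPM in the day 13 mice and 11, 11.6, 8.26 and 9.69 CPM in the rapamycin mice. For Laptm5, day 4 gave 15.7, 13.5, 11.6 and 14.1 CPM, 13.8, 13, 12.9 and 14 CPM on day 6 and 14.8, 16.1, 13.7 and 12.9 CPM on day 8. The day 13 mice overlapped with the controls and the rapamycin mice were lower than all of them. Laptm5 fell by 0.67 on the log2 scale (SE 0.107, edgeR, BH-adjusted p = 0.00514) with rapamycin. Aif1 read 4, 3.39, 3.79 and 3.64 CPM in control mice A to D, 3.87, 4.71, 3.43 and 3.08 CPM in the day 13 mice and 2.22, 2.06, 2.67 and 2.25 CPM in the rapamycin mice. Earlier levels of Aif1 were 2.77, 1.96, 2.08 and 3.83 CPM on day 4, 3.58, 3.16, 3.02 and 3.02 CPM on day 6 and 3.82, 3.03, 4.32 and 2.92 CPM on day 8. The rapamycin mice lay below all controls and all day 13 mice, and 3 of the 4 day 4 mice were below the controls too. Aif1 was not called on day 13 (log2 fold change 0.04, SE 0.148, edgeR, BH-adjusted p = 0.864), and fell by 0.67 on the log2 scale (SE 0.13, edgeR, BH-adjusted p = 0.0134) with rapamycin.

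Of the 13 phagocytic and sensing genes, 8 were called higher on day 13 (8.4% of all genes were) and 0 lower (8.06%), with a list median of 0.72. The 3 chains of C1q, the recognition molecule of the classical complement pathway, are encoded side by side on chromosome 4 and rose together. C1qb read 14, 11.9, 11.2 and 12.5 CPM in control mice A to D, 27.3, 40.4, 16.5 and 18 CPM on day 13 and 10.4, 10.6, 10.2 and 8.84 CPM with rapamycin. On days 4, 6 and 8 it was at 13, 12.3, 10 and 11.4 CPM, at 8.71, 9.57, 9.9 and 10.8 CPM and at 15, 9.88, 20.2 and 11.6 CPM. All day 13 mice exceeded all controls, mice A and B by the most, and day 8 mice A and C, but not B and D, did so too. The mean of C1qb was 12.4 ± 1.2 CPM (SD, n = 4) in the controls and 25.5 ± 11 CPM (SD, n = 4) on day 13. C1qb rose by 1.05 on the log2 scale (SE 0.245, edgeR, BH-adjusted p = 0.0131) on day 13 and was still called, at 0.51, without mice A and B. It fell by 1.35 on the log2 scale (SE 0.244, edgeR, BH-adjusted p = 0.00332) from day 13 to rapamycin, and rapamycin against control was not called (log2 fold change -0.29, SE 0.0917, edgeR, BH-adjusted p = 0.101).

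C1qc followed C1qb. C1qc read 13.7, 15.1, 14.8 and 14 CPM in control mice A to D, 26.8, 44.9, 23.9 and 17 CPM in the day 13 mice and 13.3, 12, 9.65 and 11 CPM in the rapamycin mice. Earlier levels of C1qc were 14.5, 12.4, 12.1 and 13.9 CPM on day 4, 11.4, 11.6, 10.7 and 12.2 CPM on day 6 and 19.9, 12.8, 21.8 and 12.6 CPM on day 8. Its day 13 mice did not overlap with the controls, and 4 of 4 rapamycin mice were below all controls. C1qc rose by 0.97 on the log2 scale (SE 0.234, edgeR, BH-adjusted p = 0.0151) on day 13, and was at -0.32 with rapamycin (BH-adjusted p = 0.0776). C1qa rose by 0.72 on day 13 (BH-adjusted p = 0.0387), with 4 of 4 mice above the controls, and by 0.26, not called, without mice A and B. On day 6 all 3 chains lay below the controls in 4 of 4 mice, at -0.38, -0.35 and -0.33 (edgeR, BH-adjusted p = 0.00418, 0.0195 and 0.00632), which was below the fold minimum. C3ar1, the receptor for the complement fragment C3a, rose by 0.75 on the log2 scale (SE 0.234, edgeR, BH-adjusted p = 0.041) on day 13. C3 itself, the central complement component, varied widely between controls, at 0.5, 3.56, 1.14 and 0.851 CPM, and was not called on day 13 (log2 fold change 0.67, SE 0.58, edgeR, BH-adjusted p = 0.413). The control with the highest C3, mouse B, also had the highest level of the choroid plexus gene Ttr, 18.6, 1511, 40.1 and 29.1 CPM in control mice A to D; the part of choroid plexus in the C3 levels was not tested.

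Tlr2 and Cd14, which sense microbial and damage molecules together, had the largest rises of the list. Tlr2 read 1.44, 1.68, 0.822 and 0.929 CPM in the controls, 5.34, 6.08, 2.06 and 1.4 CPM on day 13 and 0.833, 0.577, 0.807 and 0.487 CPM with rapamycin. On days 4, 6 and 8 Tlr2 was at 1.1, 1.07, 0.87 and 1.9 CPM, 1.08, 1.21, 0.85 and 1.27 CPM and 1.6, 0.861, 1.97 and 0.95 CPM. Day 13 mice A, B and C were above all controls and D was not. Tlr2 rose by 1.63 on the log2 scale (SE 0.452, edgeR, BH-adjusted p = 0.0261) on day 13, and fell by 2.50 on the log2 scale (SE 0.456, edgeR, BH-adjusted p = 0.00354) from day 13 to rapamycin. Cd14 read 2.33, 2.15, 1.55 and 2.44 CPM in control mice A to D, 9.23, 7.06, 4.4 and 1.7 CPM in the day 13 mice and 1.39, 2.06, 2.07 and 2.07 CPM in the rapamycin mice. Earlier levels of Cd14 were 1.99, 1.17, 1.9 and 1.77 CPM on day 4, 1.41, 1.81, 1.7 and 1.51 CPM on day 6 and 2.81, 1.51, 3.49 and 1.28 CPM on day 8. Day 13 mouse D was within the range of the controls, while the other 3 were above all controls. Cd14 rose by 1.42 on the log2 scale (SE 0.416, edgeR, BH-adjusted p = 0.032) on day 13. Its rapamycin mice overlapped with the controls, at -0.13 on the log2 scale (SE 0.182, edgeR, BH-adjusted p = 0.769), which was not called. Without day 13 mice A and B, Tlr2 and Cd14 were at 0.53 and 0.56 and were not called.

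Fcgr3, an activating Fc receptor for IgG, was higher in all 4 day 13 mice than in any control. Fcgr3 read 6.53, 6.07, 6.02 and 7.2 CPM in control mice A to D, 11.3, 16.4, 8.36 and 7.57 CPM in the day 13 mice and 5.2, 5.52, 4.87 and 4.37 CPM in the rapamycin mice. Before day 13, Fcgr3 was at 5.13, 5.37, 5.74 and 5.47 CPM on day 4, 4.6, 4.95, 5.08 and 5.95 CPM on day 6 and 5.75, 5.44, 6.95 and 5.19 CPM on day 8. Day 13 mice C and D exceeded the controls by a small margin and A and B by a wide one, and the rapamycin mice were below the controls. Fcgr3 rose by 0.76 on the log2 scale (SE 0.215, edgeR, BH-adjusted p = 0.0277) on day 13. Cd68, a glycoprotein of the endosomes and lysosomes of phagocytes, rose by 0.72 on the log2 scale (SE 0.233, edgeR, BH-adjusted p = 0.0448) on day 13, at 6.89, 6.02, 4.01 and 3.36 CPM against 3.87, 2.7, 2.7 and 3.13 CPM in the controls. Mouse D overlapped with the controls.

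Trem2, the lipid-sensing receptor that the disease-associated state depends on, had the smallest day 13 change among the phagocytic and sensing genes. Trem2 read 8.14, 6.95, 6.78 and 7.58 CPM in control mice A to D, 5.88, 9.98, 6.69 and 5.29 CPM in the day 13 mice and 5.41, 5.32, 3.83 and 4.02 CPM in the rapamycin mice. Before day 13, Trem2 was at 6.48, 6.28, 6.49 and 6.85 CPM on day 4, 6.4, 7.42, 5.97 and 6.95 CPM on day 6 and 6.67, 6.37, 6.16 and 5.96 CPM on day 8. On day 13 mouse B was above all controls, A, C and D were below, and with rapamycin all 4 mice were below. Trem2 was not called on day 13 (log2 fold change -0.07, SE 0.184, edgeR, BH-adjusted p = 0.798), and fell by 0.66 on the log2 scale (SE 0.128, edgeR, BH-adjusted p = 0.0144) with rapamycin. Its signalling adaptor Tyrobp was not called on day 13 (log2 fold change 0.44, SE 0.239, edgeR, BH-adjusted p = 0.195), and fell by 0.70 on the log2 scale (SE 0.0997, edgeR, BH-adjusted p = 0.00259) with rapamycin. Fcer1g, the adaptor of the Fc receptors, was at 0.66 on day 13 (BH-adjusted p = 0.07) and -0.29 with rapamycin. Ctss, the lysosomal protease cathepsin S, read 54.6, 50.3, 44.3 and 56.2 CPM in the controls, 60.5, 106, 54.9 and 48.5 CPM on day 13 and 34.4, 34.1, 32.3 and 36.1 CPM with rapamycin. Day 13 mouse B stood far above the controls, and all rapamycin mice were below all controls. Ctss was not called on day 13 (log2 fold change 0.40, SE 0.207, edgeR, BH-adjusted p = 0.18), and fell by 0.57 on the log2 scale (SE 0.07, edgeR, BH-adjusted p = 0.0012) with rapamycin.

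The 8 disease-associated genes ranged from -0.76 to 2.83 on day 13, with a list median of 0.42. Spp1 and Cd9 were called higher (8.4% of all genes were) and Apoe lower (8.06%). A single lower call in a list of 8 is near that share. Spp1 encodes the secreted phosphoprotein osteopontin. Spp1 read 1.63, 1.91, 2.94 and 1.47 CPM in control mice A to D, 22, 29, 3.73 and 1.83 CPM in the day 13 mice and 2.43, 1.55, 4.6 and 1.97 CPM in the rapamycin mice. Earlier levels of Spp1 were 2.47, 1.71, 2.98 and 1.75 CPM on day 4, 2.09, 1.36, 1.82 and 3.63 CPM on day 6 and 2.93, 1.65, 6.25 and 3.38 CPM on day 8. The highest of all mice by far were A and B of day 13, C was above the controls by a small margin, and D was among them. The day 13 mean was 14.1 ± 13.4 CPM (SD, n = 4), with an SD close to the mean, against 1.99 ± 0.661 CPM (SD, n = 4) in the controls. Spp1 rose by 2.83 on the log2 scale (SE 0.754, edgeR, BH-adjusted p = 0.0223) on day 13, and was at 0.50, not called, without mice A and B. Rapamycin against control was not called (log2 fold change 0.41, SE 0.313, edgeR, BH-adjusted p = 0.538). Cd9, a tetraspanin, showed all 4 day 13 mice above the controls. Cd9 read 18.6, 23.7, 20 and 21.1 CPM in control mice A to D, 41, 57.6, 24 and 25 CPM in the day 13 mice and 12.7, 12.3, 17.5 and 16.5 CPM in the rapamycin mice. For Cd9, day 4 gave 16.7, 15.8, 15.2 and 20.3 CPM, 14, 16.7, 17.5 and 17.5 CPM on day 6 and 26.2, 13.4, 27.2 and 17.5 CPM on day 8. The margin was small for day 13 mice C and D, and day 8 mice A and C were above the controls too. Cd9 rose by 0.83 on the log2 scale (SE 0.244, edgeR, BH-adjusted p = 0.033) on day 13 and was at -0.48 with rapamycin (BH-adjusted p = 0.039), below the fold minimum.

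Apoe, the main lipid carrier of the brain, is named among the genes that rise in disease-associated microglia, but fell here. Apoe read 632, 689, 706 and 732 CPM in control mice A to D, 292, 250, 512 and 558 CPM in the day 13 mice and 686, 658, 640 and 586 CPM in the rapamycin mice. Earlier levels of Apoe were 641, 675, 735 and 724 CPM on day 4, 582, 632, 586 and 613 CPM on day 6 and 436, 548, 477 and 509 CPM on day 8. All 4 mice of days 6, 8 and 13 were at or below the lowest control, mice A and B of day 13 lowest, while the day 4 and rapamycin mice overlapped with the controls. Apoe fell by 0.76 on the log2 scale (SE 0.242, edgeR, BH-adjusted p = 0.0435) on day 13. It was at -0.48 on day 8 (edgeR, BH-adjusted p = 0.00267), just short of the fold minimum, and at -0.09 with rapamycin. Gja1, which encodes the astrocyte connexin 43, moved in the same mice, from 185, 176, 183 and 170 CPM in the controls to 48.7, 62.3, 117 and 144 CPM on day 13 and 166, 163, 184 and 182 CPM with rapamycin. Of the 12 astrocyte markers, 5 were above 0 and 7 below on day 13, with a median of -0.05. Gja1 was the 1 called lower, and Gfap was called higher. The part of astrocytes in the Apoe level was not tested.

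Lpl, lipoprotein lipase, rose without the pattern of the phagocytic genes. Lpl read 45.3, 35.5, 31.7 and 36.5 CPM in control mice A to D, 40.5, 44.5, 55.3 and 69.7 CPM in the day 13 mice and 31.8, 34.6, 31.1 and 28.7 CPM in the rapamycin mice. For Lpl, day 4 gave 34.7, 33.1, 24.6 and 36.6 CPM, 52.6, 47.1, 58.7 and 47.3 CPM on day 6 and 53.6, 57.1, 39.9 and 62.3 CPM on day 8. All day 6 mice were above all controls, and on day 13 mice C and D, not A and B, were the highest. Lpl rose by 0.52 on the log2 scale (SE 0.136, edgeR, BH-adjusted p = 0.0291) on day 8, and was not called on day 13 (log2 fold change 0.51, SE 0.178, edgeR, BH-adjusted p = 0.0597). From day 13 to rapamycin it fell by 0.75 on the log2 scale (SE 0.162, edgeR, BH-adjusted p = 0.00777). Without day 13 mice A and B, Lpl was called on day 13, at 0.78, and without C and D it was at 0.21. Itgax, the integrin CD11c, was the lowest member. Itgax read 0.629, 0.688, 0.126 and 0.503 CPM in control mice A to D, 0.607, 0.719, 0.613 and 0.827 CPM in the day 13 mice and 0.0694, 0.162, 0.124 and 0.0812 CPM in the rapamycin mice. Before day 13, Itgax was at 0.248, 0.196, 0.242 and 0.667 CPM on day 4, 0.196, 0.397, 0.173 and 0.246 CPM on day 6 and 0.281, 0.551, 0.464 and 0.366 CPM on day 8. The rapamycin mice lay below all day 13 mice. Itgax was not called on day 13 (log2 fold change 0.52, SE 0.416, edgeR, BH-adjusted p = 0.378), and fell by 2.59 on the log2 scale (SE 0.327, edgeR, BH-adjusted p = 0.000748) from day 13 to rapamycin. Against control it did not pass the filter on low counts, and an exact permutation test of the 4 against 4 values gave p = 0.0571 (two-sided, where the smallest p that 70 arrangements allow is 0.0286).

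Axl, a receptor tyrosine kinase for apoptotic cells, had one of the smallest day 13 changes of the list. Axl read 45, 46, 45.4 and 40.2 CPM in control mice A to D, 41, 54.4, 40 and 42.4 CPM in the day 13 mice and 37.1, 37.7, 39.4 and 40.4 CPM in the rapamycin mice. For Axl, day 4 gave 42.6, 40.5, 42.8 and 44.2 CPM, 41, 40.7, 39.5 and 38.5 CPM on day 6 and 44.3, 41.3, 45.9 and 41.2 CPM on day 8. Day 13 mouse B was the one mouse above all controls. Axl was not called on day 13 (log2 fold change 0.02, SE 0.097, edgeR, BH-adjusted p = 0.914). Clec7a, the beta-glucan receptor dectin-1, was at 0.888, 1.14, 0.553 and 0.697 CPM in the controls and 0.278, 0.216, 0.373 and 0.284 CPM in the rapamycin mice, without overlap. Clec7a fell by 1.49 on the log2 scale (SE 0.301, edgeR, BH-adjusted p = 0.017) with rapamycin. On day 6 it fell by 0.97 on the log2 scale (SE 0.271, edgeR, BH-adjusted p = 0.0365), and on day 13 was at 0.34 (BH-adjusted p = 0.505). Cst7, the cysteine protease inhibitor cystatin F, was at 0.02 on day 13 and 0.01 with rapamycin. Of the genes that define the disease-associated state, Itgax, Clec7a, Cst7, Lpl and Axl were thus not called on day 13.

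**Figure D3:**
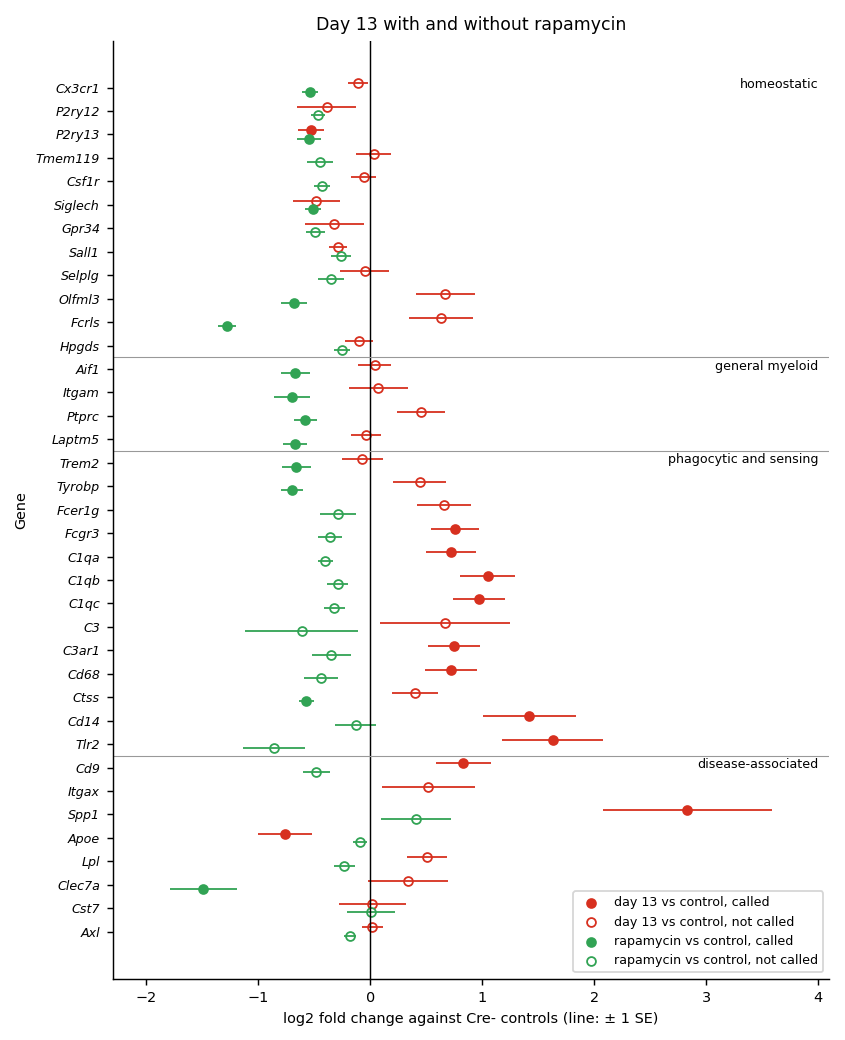
log2 fold change against the controls (horizontal axis) of the 37 genes (rows, by role), for day 13 (red) and rapamycin (green); lines are ± 1 SE, filled points passed the adjusted p and fold minimum, and Itgax has no rapamycin value because it did not pass the filter. The red points of the phagocytic and sensing genes lie mostly to the right of 0 and all green points of these genes lie to the left.

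To contrast the roles within each mouse, the log2 ratio of each gene to the control mean was averaged over each list. In day 13 mice A to D, the homeostatic mean was -0.40, 0.05, 0.03 and -0.21, and the phagocytic and sensing mean was 0.83, 1.24, 0.31 and 0.12. The phagocytic mean therefore exceeded the homeostatic mean by 1.22, 1.19, 0.28 and 0.33, against -0.06 to 0.13 in the controls. All 4 day 13 mice exceeded all controls in this gap, and mice A and B did so by more than C and D. Mouse A reached it with low homeostatic genes and mouse B without. On day 8 the gap was 0.17, -0.04, 0.49 and 0.07, with mice A and C the highest again. On days 4 and 6 it was 0.03 to 0.20 and -0.14 to 0.02.

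In the rapamycin mice the homeostatic mean was -0.46, -0.47, -0.63 and -0.51 and the phagocytic and sensing mean -0.43, -0.35, -0.39 and -0.40. The gap was 0.03, 0.13, 0.24 and 0.11 in mice A to D. Mice A, B and D did not exceed the highest control, at 0.13. Mouse C lay above all controls, near day 13 mouse C at 0.28. Both lists thus lay below every control mouse, by similar amounts. The general myeloid mean was -0.67 to -0.52 in the same mice, and the mean over all 37 members -0.44 to -0.41, with the 4 mice closer together than in any other group. The disease-associated mean exceeded the homeostatic mean by 0.84, 0.63, 0.00 and 0.39 in day 13 mice A to D, by 0.15, 0.13, 0.53 and 0.20 in rapamycin mice A to D and by -0.08 to 0.07 in the controls. All 4 rapamycin mice were above all controls in this gap, and rapamycin mouse C was above day 13 mice C and D. Their disease-associated mean was itself -0.34 to -0.10, so the gap was a smaller fall and not a rise. The list includes Apoe, Axl, Lpl and Cd9, which are not specific to microglia, and Spp1, at 4.6 CPM in rapamycin mouse C. The 0.5 CPM added before the log shrinks the ratios of Clec7a and Itgax, at means of 0.288 and 0.109 CPM with rapamycin. The median log2 fold change of the disease-associated genes on day 13 exceeded that of the homeostatic genes by 0.53, and by 0.15 without mice A and B.

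**Figure D4:**
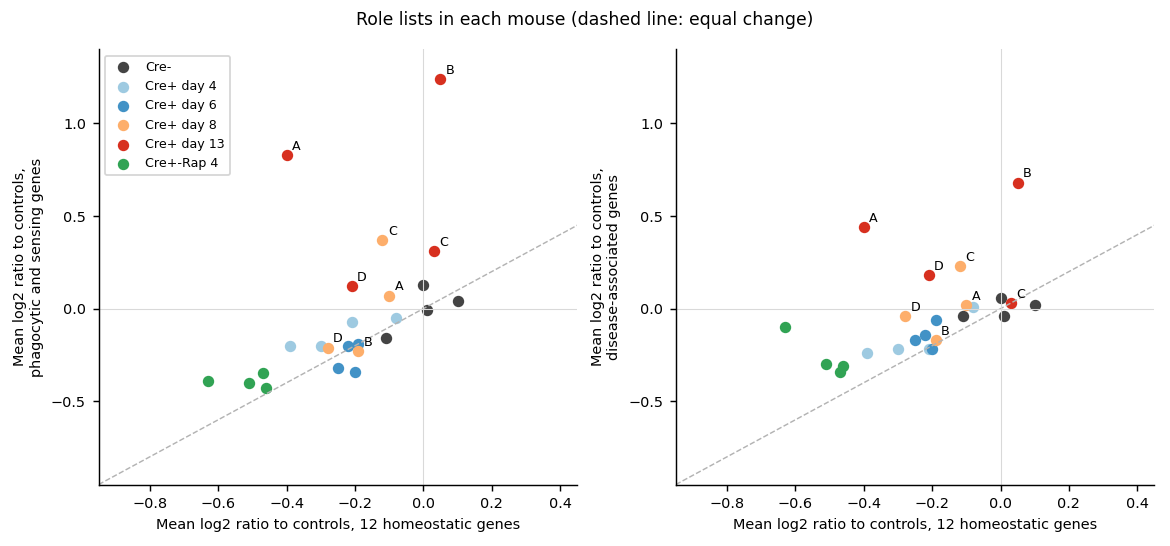
Mean log2 ratio to the controls of the 12 homeostatic genes (horizontal axis) against that of the phagocytic and sensing genes (left) and the disease-associated genes (right); each point is 1 of 24 mice, the dashed line marks equal change, and the letters name the day 8 and day 13 mice. Day 13 mice A and B lie furthest above the line on the left, at gaps of 1.22 and 1.19, and the rapamycin mice lie at the lower left, 0.03 to 0.24 above the line on the left and 0.13 to 0.53 above it on the right.

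Ligands and partner receptors of the members were examined as a list of 17 tested genes. Of these, 4 were called higher on day 13 (8.4% of all genes) and 0 lower (8.06%). These were Il1b at 1.78, Il1a at 1.53, Pros1 at 1.08 and Tgfb1 at 0.72 (edgeR, BH-adjusted p = 0.0299, 0.00893, 0.0394 and 0.0289). The first 2 encode interleukin-1 cytokines, Pros1 the AXL-family ligand protein S, and Tgfb1 the cytokine that maintains homeostatic microglia. Of the ligands of the homeostatic receptors, Csf1 was at -0.12, Il34 at -0.47 and Cx3cl1, the fractalkine gene, at 0.31 on day 13 (BH-adjusted p = 0.632, 0.105 and 0.0164), and 0 were called. All 4 Cx3cl1 values on day 13, 459, 395, 435 and 387 CPM, were above those of the controls, 363, 327, 326 and 342 CPM. With rapamycin the 3 were at -0.18, -0.30 and -0.07 and Tgfb1 at -0.62 against control, and 0 of the 17 ligands and partners were called.

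Of 13 microglial transcription factor genes, 5 were called higher on day 13 and 0 lower, led by Runx1 (1.31), Cebpb (1.29), Spi1 (0.77), which encodes PU.1, and Bhlhe41 (0.67). All 4 day 13 mice were above all controls in each of these 4. Among 19 further homeostatic genes, Ecscr (0.99) and Rhob (0.55) were called higher on day 13 and 0 genes lower, and with rapamycin 0 were called higher and 4 lower than in the controls, 17 of the 19 were below 0, and the list median was -0.39. Among 26 further disease-associated genes, 8 were called higher on day 13 and 0 lower, with a median of 0.43. Gpnmb, a transmembrane glycoprotein, was at 5.51, 6.54, 6.67 and 5.77 CPM in the controls, 11.7, 14.3, 8.33 and 18.4 CPM on day 4, 49.2, 107, 54.5 and 55.5 CPM on day 13 and 4.58, 6.35, 3.81 and 3.96 CPM with rapamycin, so that it was already above all controls on day 4. Vim, Ccl3 and Lgals3 were called at 2.29, 2.09 and 1.90 on day 13. Of the complement partners, C4b (0.91), Serping1 (0.66) and Masp1 (0.57) were the 3 of 15 called higher on day 13. Over all genes, 8.4% were called higher and 8.06% lower on day 13, and 1.04% were called lower with rapamycin against control. These lists were chosen with earlier results of these data known, and their counts are descriptions. Whole hippocampus was sequenced, and which cells carried the RNA of these further genes was not tested.

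Markers of other cells that could carry the same genes were read in each mouse. The summed level of 10 border macrophage markers was 29.1 to 42.4 CPM in the controls, 31.8 to 44.7 CPM on day 13 and 23.3 to 28.9 CPM with rapamycin, and of 9 tested 0 were called with rapamycin against control and 1, Cd163, was called higher on day 13 (0.99). The rapamycin mice were below all controls in this sum as in the microglia genes, and its part in those results was not tested. The 16 monocyte, neutrophil and lymphocyte markers summed to 1.12 to 2.82 CPM in all 24 mice. Ly6g and Cd3d were at 0 in 21 of the 24 mice and Ly6c2 in 13, and Ccr2 did not exceed 1.04 CPM. In the day 13 mice the sum was 1.2 to 2.38 CPM, against 1.12 to 2.32 CPM in the controls. Gfap, the astrocyte filament gene, was at 741, 1346, 365 and 431 CPM on day 13 and at 673, 126, 889 and 158 CPM on day 8, highest within each day in mice A and B of day 13 and A and C of day 8, which were also the highest of their day in C1qb. Of 12 cell cycle genes, 6 were called higher and 1 lower on day 13, Ccnb1 (1.87), Bub1 (1.61), Top2a (1.22) and Cdk1 (1.06) among the 6, and 9 were called lower and 1 higher with rapamycin against day 13. On day 8, when 1 microglia gene was called, 6 of the 12 were called higher too and 0 lower, with a list median of 0.82 against 0.74 on day 13. Of the glial and vascular lists, 4 of 10 oligodendrocyte, 3 of 12 astrocyte and 1 of 9 endothelial and mural markers were called lower with rapamycin against control and 0 higher, with medians of -0.41, -0.20 and -0.23, and 0 of 11 neuron and hippocampus markers were called. On day 13 the astrocyte list had 1 higher (Gfap, 1.91) and 1 lower (Gja1, -0.93), the neuron and hippocampus list 1 higher (Slc17a7, 0.73), and the oligodendrocyte, endothelial and mural and choroid plexus lists 0 in both directions. The shares of all genes were 8.4% called higher and 8.06% lower on day 13, and 3.99% called in either direction on day 8. With rapamycin, 1.04% were called lower against control and 11.2% against day 13. A single call on day 13 in a list of 9 to 12 genes is near these shares. The part of these cells and of cell division in the microglia results was not tested. The summed choroid plexus markers ran from 40.2 to 1711 CPM over the mice, in every group with wide spread, and with the level of Ttr as a covariate 7 members were called higher on day 13 and 13 lower with rapamycin.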

How the data were processed

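Hippocampal RNA of 24 mice (6 groups of 4) was sequenced as stranded, rRNA-depleted total RNA. The deposited values are raw counts per gene: the authors trimmed reads with CutAdapt 1.16.5, aligned them to GRCm38 with STAR 2.7.2b and counted them over a GENCODE annotation with featureCounts 1.6.4. The strand setting of the counting is not given in the sources used here. Groups came from the sample titles. Nothing in the labels states how the 4 mice of a group were kept, so p-values measure the spread between these mice.

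Genes that passed filterByExpr were tested with edgeR 4.0.16 (R 4.3.3, TMM factors, quasi-likelihood test) on the 8 mice of each of 7 comparisons, and p-values were adjusted by the Benjamini-Hochberg method over all tested genes. Called means that the adjusted p was below 0.05 with a log2 fold change beyond 0.5 in either direction. Calls on simulated counts with 200 genes changed 2-fold (day 13 against control) recovered 99.5% of them, and 17 unchanged genes were called too. The simulation gave every gene the same fixed spread between mice and left genes of low counts unchanged. Real day 13 mice differed far more in genes such as Spp1 (14.1 ± 13.4 CPM, SD, n = 4). The recovery therefore does not measure the power for such genes. The members and lists were chosen with earlier results of these data known. Values of every mouse are given for up to 5 members per role list, those called in any comparison with the largest day 13 change, plus the member with at least 1 CPM and the smallest; other lists give up to 4 genes called on day 13. Additional names were chosen after their values were seen where the text says so. Per-kilobase levels used exon lengths of GENCODE M21. Promoters whose window reached an annotated UTR were not printed, and 1 gene of the further homeostatic list is not reported here. Alternatives were DESeq2 1.42.0, its size factors, no filter, all 24 mice in 1 fit, replicate blocks, thinning, covariates, other fold minimums and leaving out libraries. The corrections for GC content and for Ttr were chosen after the data were seen. Counts limit precision to counting error plus the spread between mice.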

Additional observations from a re-analysis of the deposited data

Results flagged for a closer look

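In 6 of 222 groups of 4 mice looked at, 1 mouse lay far from the other 3, and chance gives this in about 1 in 20 groups. P2ry12 was at 34.2 CPM in day 4 mouse D and at 32.5 CPM in day 6 mouse A, above the other mice of their days. Fcer1g was at 2.98 CPM in rapamycin mouse C, above the other 3, and Cd14 at 1.39 CPM in rapamycin mouse A, below them. Itgax was at 0.667 CPM in day 4 mouse D and Axl at 54.4 CPM in day 13 mouse B, both above the others.

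For 20 members the day 13 and the rapamycin mice lay on opposite sides of the controls and differed from each other by the edgeR test. The share of all genes that meets this rule was not counted, so the 20 cannot be set against it. In rapamycin against day 13 alone, 11.2% of all genes were called lower. The log2 fold change of rapamycin against day 13 was -1.36 for Olfml3 and -1.92 for Fcrls among the homeostatic genes, and -0.73 for Aif1, -0.79 for Itgam and -1.04 for Ptprc among the general myeloid genes. Among the phagocytic and sensing genes it was -1.15 for Tyrobp, -0.96 for Fcer1g, -1.14 for Fcgr3, -1.13 for C1qa, -1.35 for C1qb, -1.30 for C1qc, -1.30 for C3, -1.11 for C3ar1, -1.18 for Cd68, -0.98 for Ctss, -1.57 for Cd14 and -2.50 for Tlr2. Among the disease-associated genes it was -1.32 for Cd9, -0.75 for Lpl and -1.84 for Clec7a. The control mice enter both sides of this description.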

How the results depend on the processing

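Of 4645 member values under the alternatives, 4374 kept their direction and their side of the threshold, 160 lost and 110 gained a call, and 1 reversed: P2ry12 in rapamycin against day 13, called at 0.52 without the 2 shallowest day 13 libraries and at -0.54 without the 2 deepest (-0.10, not called, with all mice). Sign changes of values that were not called count as kept. Of 299 further values, which were counts of calls and values of the median gap named below, 229 stayed the same. A count was taken as the same within 1.5 times, and the gap within the SD of the day 13 mice. On day 4, 3 members were called lower with no fold minimum (0 in the report). On day 6, the single lower call became 0 with DESeq2, all 24 mice, thinning, the Xist covariate or a fold minimum of 1, 2 with no filter or the Ttr covariate, and 14 with no fold minimum, which also gave 1 higher. On day 8, the higher call became 0 at a fold minimum of 1, and 1 lower call appeared with the GC correction and 4 with no fold minimum. On day 13, the 10 higher calls became 2 with the Xist covariate, 4 at a fold minimum of 1, 3 without the 2 deepest and 16 without the 2 shallowest libraries, and the 2 lower calls became 1 with thinning, the GC correction or the Ttr covariate, 0 at a fold minimum of 1 or without the 2 deepest, and 5 without the 2 shallowest libraries. The median gap between disease-associated and homeostatic genes fell from 0.53 to 0.15 without the 2 deepest. The 13 lower calls of rapamycin against control became 6 with all 24 mice and 2 at a fold minimum of 1. Against day 13, 1 member was called higher with DESeq2, no filter, all 24 mice, the Xist covariate or the GC correction, and 2 without the 2 shallowest libraries. Between day 13 and day 8, 1 was called higher with DESeq2, 12 with all 24 mice and 14 without the 2 shallowest, which also gave 2 lower. The cause was not tested.

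Leaving out 1 mouse gave 0 to 2 lower calls on day 4, 0 to 3 lower and 0 to 1 higher on day 6, 0 to 1 in each direction on day 8, 2 to 14 higher and 0 to 3 lower on day 13, 10 to 17 lower with rapamycin against control, and 19 to 23 lower and 0 to 1 higher against day 13. The median gap ran from 0.32 to 0.71.

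With the replicate block, 7 members were called higher and 2 lower on day 13, 13 lower with rapamycin and 20 lower against day 13, and no count of calls moved by over 1.5 times. Mice with the same letter did not deviate together (correlations from -0.386 to 0.191), so that the letters share only a name.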
